A study of Mus musculus with 4 samples.

Results

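The Brn3 genes are Pou4f1, Pou4f2 and Pou4f3, also called Brn3a, Brn3b and Brn3c, which encode the class IV POU-domain transcription factors of the mouse. They were taken by gene symbol from 4 tables of gene levels in dissected mouse retina at E13.5, a day on which ganglion cells are being born, and are 3 of the 25239 gene IDs listed there. Each stood on 1 row of each table, so no values had to be summed. The series compared 2 libraries of genotype control with 2 of genotype Isl1cKO, described by the submitters as lacking Isl1 and named a conditional knockout in the sample titles. The Cre driver, the alleles that the controls carry and the number of embryos per library are not given in the sources used here. Nothing in the labels says that replicates came from separate embryos, so p-values measure the spread between these libraries, which may be technical in the controls. The libraries labelled Isl1cKO differed in Xist, as given below, and so were not repeats of 1 sample.

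POU factors bind DNA through a POU-specific domain and a POU homeodomain joined by a linker. In the retina Pou4f2 comes on in newborn ganglion cells, the neurons whose axons form the optic nerve, after the proneural factor Atoh7 has acted in progenitors, and it works beside the LIM-homeodomain factor Isl1. Pou4f1 and Pou4f3 follow in ganglion cells, each in some of the subtypes. Outside the retina Pou4f1 is known for its role in sensory ganglia and Pou4f3 for its role in inner ear hair cells.

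The 3 genes lie on different chromosomes. In the authors' tables Pou4f2 spans chr8:78433009-78436647 on the minus strand and Pou4f1 spans chr14:104462325-104467999 on the minus strand (mm10). In GENCODE M21 the main transcripts of Pou4f2 and Pou4f3 have 2 exons and that of Pou4f1 has 3, with the coding sequence in 2 exons of each gene. No other GENCODE gene overlaps any of them, on either strand. GENCODE extends Pou4f1 by 649 bases beyond the 3′ end of the authors' model, and RNA there does not enter the values below.

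Because the paralogs are alike in sequence, the stretch in which their RNA cannot be told apart is shown first. The longest identical run between the Pou4f1 and Pou4f2 transcripts is 71 bases of coding sequence, in exon 2 of both, at chr14:104466054-104466124 and chr8:78435062-78435132 (GRCm38, GENCODE M21, minus strand).
Run shared by Pou4f1 and Pou4f2: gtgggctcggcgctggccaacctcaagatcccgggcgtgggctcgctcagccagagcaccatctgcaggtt
Over the whole transcripts, 61 words of 31 bases are shared between these genes, 1.38% of the words of Pou4f1. The longest run that Pou4f3 shares is 41 bases with Pou4f1 and 35 bases with Pou4f2. Reads lying inside these runs could be given to either gene, and how the authors' pipeline divided them is not recorded.

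The contrast of the values below is between Pou4f1 and Pou4f2, and the 250 bases before the annotated start of each are set side by side (RefSeq, GRCm38.p6, minus strand). Capitals mark matches to the E-box letters CANNTG, the kind of site that Atoh7 and other proneural bHLH factors bind. The window of Pou4f1 is chr14:104468000-104468249 and that of Pou4f2 is chr8:78436648-78436897.
Pou4f1: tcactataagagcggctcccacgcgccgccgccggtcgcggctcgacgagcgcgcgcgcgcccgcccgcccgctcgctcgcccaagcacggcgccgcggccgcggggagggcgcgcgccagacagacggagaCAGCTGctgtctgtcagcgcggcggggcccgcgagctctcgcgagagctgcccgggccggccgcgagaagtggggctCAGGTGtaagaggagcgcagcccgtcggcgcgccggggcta
Pou4f2: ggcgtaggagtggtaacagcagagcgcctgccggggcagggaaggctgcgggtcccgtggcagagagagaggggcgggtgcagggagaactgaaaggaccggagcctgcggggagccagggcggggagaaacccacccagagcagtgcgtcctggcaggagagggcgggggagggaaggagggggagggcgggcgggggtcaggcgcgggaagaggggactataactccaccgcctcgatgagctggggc
The Pou4f1 window holds 2 matches, CAGCTG with its first base 118 before the start and CAGGTG with its first base 41 before it, while these letters are not in the Pou4f2 window. Of 32851 RefSeq promoter windows of this length, 66.2% hold CANNTG on either strand and 13% hold CAGCTG, which is one form of it. Neither window holds TAAT, the core of many homeodomain sites (54.9% of windows), nor ATAATTA, which contains TAAT and is part of a Brn3 consensus site (2.5%), nor TATAAA (12.4%), on either strand. The Pou4f1 window is 78.0% G and C with 47 CpG and the Pou4f2 window 70.8% with 17, against medians of 52.4% and 6 over all windows.

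The libraries were read first for their labels. Isl1 stood at 242 and 201 TPM (a level scaled to transcript length and to the library's sum) in control and 321 and 223 TPM in the libraries labelled Isl1cKO. In limma the adjusted p-value was 0.683, so its level did not separate the labels, and the tables hold 1 value per gene and none per exon. Every direction below rests on the labels, and paired values are given with replicate 1 first. Progenitor markers of the retina were high in each library, with Rax from 405 to 477 TPM. The library labelled Isl1cKO replicate 2 stood farthest out, at 30.5 on the first principal component against 7.13 for Isl1cKO replicate 1 and -21.8 and -15.8 for the controls, and held Xist at 0.501 TPM against 209 to 287 TPM elsewhere.

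Pou4f2, the first of the family to come on in ganglion cells, was the most abundant of the 3 genes in each library. It measured 126 and 124 TPM in control replicates 1 and 2, against 135 and 120 TPM in replicates 1 and 2 labelled Isl1cKO. The control values lay between the Isl1cKO values, so the groups overlapped. The means were 125 ± 1.33 TPM and 127 ± 11.1 TPM (SD, n = 2 each). On the log2(TPM + 1) scale used for all fold changes here, which understates the change of low genes, the difference was 0.02 (SE 0.10, unadjusted 95% interval -0.23 to 0.28, adjusted p-value 0.941 in limma). Its sign turned to -0.06 without Isl1cKO replicate 1. Read coverage of the gene was 593 to 723 reads per base.

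Pou4f1 was lower in both libraries labelled Isl1cKO, without passing the threshold over all genes. It measured 19.6 and 19.7 TPM in control replicates 1 and 2, against 9.66 TPM in replicate 1 and 4.16 TPM in replicate 2 of Isl1cKO. The controls were nearly equal and the groups did not overlap, as in 44.9% of the 13984 tested genes (lower in 30%), while the Isl1cKO libraries differed from each other by more than the controls did. In whole tissue, fewer cells of a type and less RNA per cell cannot be told apart. The mean in the libraries labelled Isl1cKO, 6.91 ± 3.89 TPM, was 0.351 of the control mean, 19.7 ± 0.0589 TPM (SD, n = 2 each). This gave a log2 fold change of -1.48 (SE 0.36, unadjusted 95% interval -2.43 to -0.52) and, in limma, an adjusted p-value of 0.268. Only 0.658% of tested genes had a lower log2 fold change. Without Isl1cKO replicate 1 the value was -2.0, and without Isl1cKO replicate 2 it was -0.95. Each of these fits leaves 1 library labelled Isl1cKO, so the gene's own spread comes from the nearly equal controls alone. Coverage was 103 and 97.4 reads per base in the controls and 51.6 and 20.6 in the libraries labelled Isl1cKO.

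Pou4f3 was the least abundant of the family. It spans chr18:42394597-42396093 on the plus strand in the authors' tables, where its model ends 1156 bases short of GENCODE's 3′ end. It measured 4.86 and 2.02 TPM in control replicates 1 and 2, against 0.761 TPM in Isl1cKO replicate 1 and a listed 0 in Isl1cKO replicate 2. The groups did not overlap, but the controls differed from each other by more than 2-fold. The gene reached 1 TPM only in the controls, so it entered the fit only through the group in which it was high. Its log2 fold change was -1.66 (SE 0.43, adjusted p-value 0.285 in limma) and depended on the pseudocount, being -3.47 when 0.1 was added in place of 1. Coverage was 25.5 and 9.97 reads per base in the controls and 4.06 and 0 in the libraries labelled Isl1cKO.

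**Figure D1:**
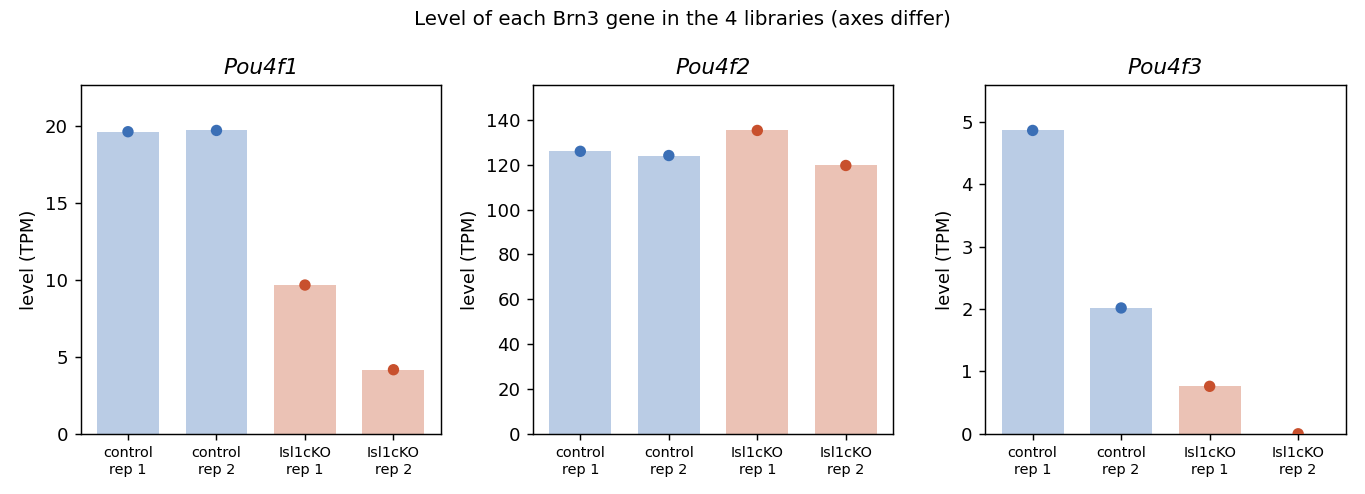
Level in TPM (vertical axis from 0, scaled for each gene) of Pou4f1, Pou4f2 and Pou4f3 in the 4 libraries, 1 bar and point per library, controls in blue and libraries labelled Isl1cKO in red. Pou4f2 stays between 120 and 135 TPM, Pou4f1 goes from 19.6 and 19.7 TPM to 9.66 and 4.16 TPM, and Pou4f3 from 4.86 and 2.02 TPM to 0.761 TPM and a listed 0.

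None of the 3 genes thus passed the adjusted threshold of 0.05 in limma, where 0.493% of the 13984 tested genes did (0.465% lower and 0.0286% higher). At an unadjusted p-value under 0.05 in limma, which 12.1% of tested genes reached and 8.92% reached as lower, Pou4f1 (0.0116) passed and Pou4f2 (0.807) did not. Pou4f1 also had a log2 fold change of -1 or less, as did 1.48% of tested genes. Pou4f3 had an unadjusted p-value of 0.0144, but it entered the fit only through the controls and is not read against these shares. With 2 libraries against 2, an exact two-sided permutation test cannot go below 0.33, the value it gave for Pou4f1 and Pou4f3.

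The shares of the 3 genes in the Brn3 RNA did not overlap between the groups. Shares add to a whole, so they restate the levels above and are not separate results. The level of Pou4f2 itself overlapped between the groups. Pou4f2 was 6.42 and 6.30 times the level of Pou4f1 in control replicates 1 and 2, and 14.0 and 28.8 times that level in the libraries labelled Isl1cKO. These ratios did not overlap, and neither did the levels of 44.9% of the 13984 tested genes. Pou4f2 made up 83.7% and 85.1% of the summed TPM of the 3 genes in the controls and 92.8% and 96.6% in the libraries labelled Isl1cKO. Pou4f1 made up 13% and 14% in the controls and 6.63% and 3.36% in Isl1cKO. The sum itself was 150 and 146 TPM in control against 146 and 124 TPM in the libraries labelled Isl1cKO.

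Ratios to Pou4f3 varied more. Pou4f2 was 25.9 and 61.5 times Pou4f3 in the controls and 178 times in Isl1cKO replicate 1, with no ratio in Isl1cKO replicate 2, where Pou4f3 was listed at 0. Pou4f1 was 4.03 and 9.77 times Pou4f3 in the controls and 12.7 times in Isl1cKO replicate 1. The order Pou4f2, Pou4f1, Pou4f3 held in each of the 4 libraries, and the ranges of the genes did not overlap within either group.

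**Figure D2:**
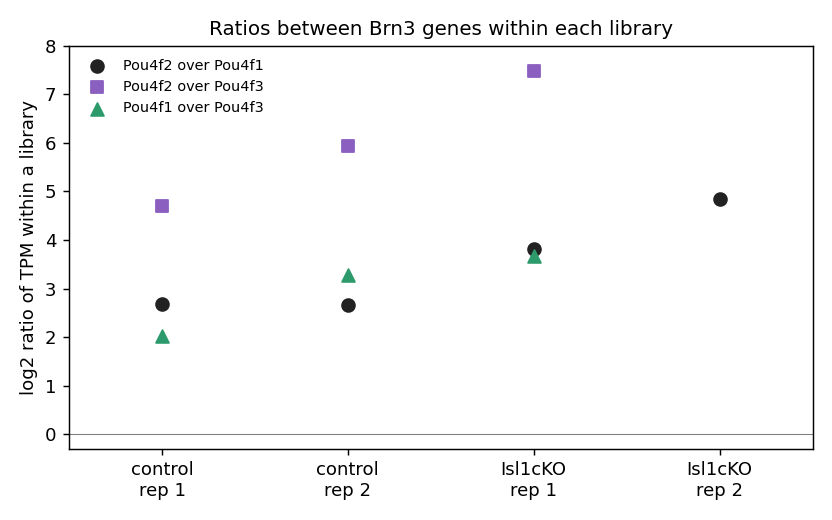
Log2 ratio of TPM (vertical axis) between 2 Brn3 genes within each library (horizontal axis), with 1 symbol per pair of genes and no error bar because each point is 1 library; no point is drawn against Pou4f3 in Isl1cKO replicate 2, where it was listed at 0. The ratio of Pou4f2 to Pou4f1 is 2.68 and 2.66 in the controls and 3.81 and 4.85 in the libraries labelled Isl1cKO.

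Whether the paralogs changed unequally was tested by taking each gene of the table relative to a chosen paralog in the same library and refitting limma over all genes. The change of Pou4f1 lay below that of Pou4f2 on the log2(TPM + 1) scale by a difference of -1.50 (SE 0.27, adjusted p-value 0.0547), just short of the threshold. It missed by more at a pseudocount of 0.1 (0.157) and passed without the filter on low values (0.0438), with FPKM in place of TPM (0.00886) and with a mean-variance trend (0.0151), and with either control or Isl1cKO replicate 1 left out, with 0.0465 as the highest of these 3 adjusted p-values. Without Isl1cKO replicate 2 the difference was -1.07 and the adjusted p-value 0.103. The change of Pou4f3 lay below that of Pou4f2 by a difference of -1.69 (SE 0.34, adjusted p-value 0.0754 in limma), and of -3.49 at a pseudocount of 0.1 (adjusted p-value 0.287). Because Pou4f3 entered the fit only through the group in which it was high, no setting under which its differences passed is read as support. Between Pou4f3 and Pou4f1 the difference was -0.19 (SE 0.52, adjusted p-value 0.723 in limma). That last difference turned to 0.30 without control replicate 1 and was -1.85 (adjusted p-value 0.0199 in limma) at a pseudocount of 0.1. Relative to Pou4f1, 13093 of 13983 genes passed at a pseudocount of 1, so a pass in that table says little about any 1 gene. The exact permutation p was 0.33 for both differences from Pou4f2 and 1 for Pou4f3 against Pou4f1.

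Genes next to the Brn3 genes on the chromosome were read as a check of the loci. The nearest tested neighbour of Pou4f1 is Rnf219, 9.5 kb away, at 46.8 and 46.3 TPM in control against 48.7 and 44.0 TPM in Isl1cKO, and the groups overlapped. On the other side Ednrb, 617.8 kb away, had a log2 fold change of -0.11. Around Pou4f2, Ttc29 (38.7 kb) and Rbmxl1 (68.6 kb) had log2 fold changes of 0.01 and 0.08. Beside Pou4f3, Rbm27 (53.1 kb) had -0.04. None of these 5 neighbours passed in limma (adjusted p-values 0.737 to 0.984).

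Among 14 POU genes read in these retinas, Pou4f2 had the highest level in each library. Next in the controls came Pou2f2, an octamer-binding factor, at 46.0 and 45.4 TPM, then Pou2f1, another of these, at 31.3 and 29.0 TPM. Pou3f1 followed at 27.3 and 23.3 TPM, ahead of Pou4f1, and the ranges of these genes did not overlap. Pou6f1 (8.37 and 7.35 TPM) and Pou3f2 (7.58 and 7.56 TPM) overlapped each other and stood above Pou4f3. In the libraries labelled Isl1cKO the range of Pou4f1 took in those of Pou6f1 (8.09 and 7.08 TPM) and Pou3f2 (6.72 and 5.76 TPM). Pou4f1 thus had no order against either gene there, while Pou6f1 stood above Pou3f2 without overlap. Of the 14 genes, 7 reached 1 TPM in every library, and 5 stayed under 1 TPM in every library, namely Pou1f1, Pou2f3, Pou3f3, Pou3f4 and Pou5f1. Pou5f2 reached 1.05 TPM in Isl1cKO replicate 2 and was at 0.401 to 0.480 TPM elsewhere.

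Of 11 listed POU genes outside the Brn3 class 5 were tested, with a median log2 fold change of -0.05, the same as over all tested genes. The list's median moved to -0.22 when Isl1cKO replicate 1 was left out and to 0.04 when replicate 2 was. None passed in limma, and 1, Pou3f1, had an unadjusted p-value under 0.05. It stood at 17.5 and 15.4 TPM in Isl1cKO, with a log2 change of -0.59 (adjusted p-value 0.203), and its groups did not overlap. Pou2f2 went the other way, to 50.1 and 59.6 TPM, at 0.25 (adjusted p-value 0.480). Pou3f2, Pou2f1 and Pou6f1 had log2 fold changes of -0.25, -0.05 and -0.05. Taken relative to Pou4f2, none of these 5 passed in limma.

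**Figure D3:**
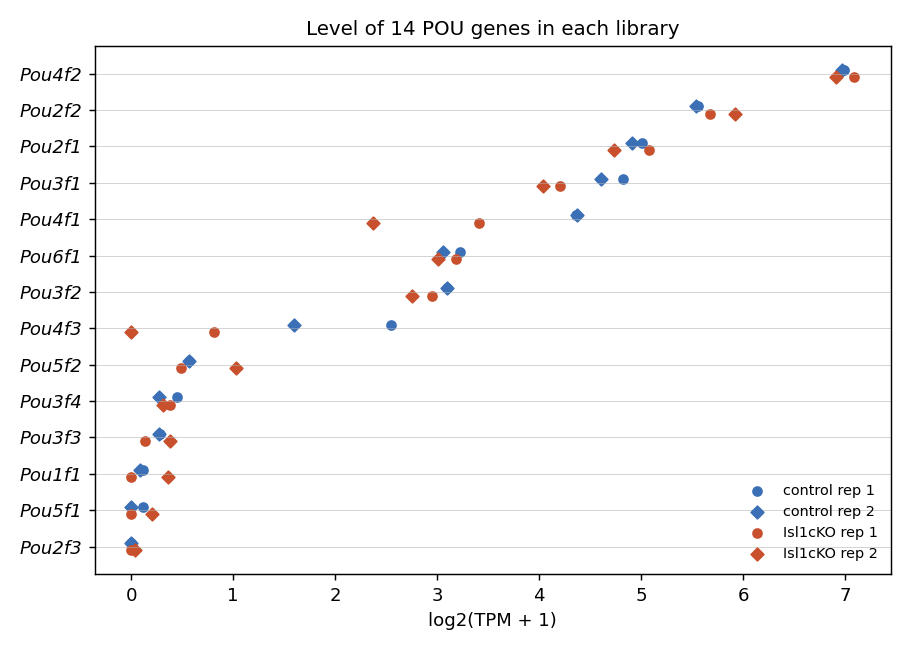
Level of 14 POU genes as log2(TPM + 1) (horizontal axis), ordered by their mean over the libraries, with 1 point per library, controls in blue and libraries labelled Isl1cKO in red, circles for replicate 1 and diamonds for replicate 2. Pou4f2 is highest in all 4 libraries. Blue and red points are separate for Pou4f1, Pou4f3, Pou3f1 and Pou3f2, lower in the libraries labelled Isl1cKO, and for Pou2f2, higher there. Of all 13984 tested genes, 44.9% did not overlap between the groups.

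The regulators that act around the Brn3 factors in ganglion cells were read from a list of 24 genes, of which 22 were tested. In limma, where 0.465% of all tested genes fell, 4 fell and 0 rose, all of the Iroquois homeobox family: Irx5 from 23.7 and 16.9 TPM to 1.55 and 1.05 TPM, with a log2 fold change of -3.20 (adjusted p-value 0.0199), Irx3 (-3.11, 0.0119), Irx4 (-2.59, 0.0216) and Irx2 (-1.26, 0.0249). Irx4 was under 1 TPM in both libraries labelled Isl1cKO and entered the fit only through the controls. The list's median was -0.22 against -0.05 over all tested genes, and moved to -0.47 when Isl1cKO replicate 1 was left out and to -0.14 when replicate 2 was. No member of the list was called when low genes were kept in, or when 1 library was left out, except without control replicate 2, where 2 were.

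Other regulators of the list were lower without passing. Ebf3, a helix-loop-helix factor of ganglion cells, measured 135 and 105 TPM in control against 47.0 and 29.7 TPM in Isl1cKO (-1.64, adjusted p-value 0.139 in limma). Isl2, the close paralog of Isl1, measured 5.11 and 5.74 TPM in control against 2.33 and 1.12 TPM in Isl1cKO (-1.27, adjusted p-value 0.173). The highest log2 fold changes were those of Onecut2 (0.28), Isl1 (0.28), Nhlh1 (0.26) and Ebf4 (0.14), none of which passed. Atoh7, named here after its values were seen because it acts before Pou4f2, measured 1025 and 1352 TPM in control against 1058 and 1458 TPM in Isl1cKO, with a log2 change of 0.08 and overlapping groups.

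Genes of ganglion cell differentiation were mostly lower. Of 29 listed, 27 were tested, 26 had a log2 fold change below 0, as did 8916 of all 13984 tested genes, and the median was -1.02 against -0.05 over all tested genes. Those that fell in limma were 3, and 0 rose, where 0.465% of all tested genes fell: Mstn, which encodes the secreted ligand myostatin (-3.10, adjusted p-value 0.00462), Nell2, an axon guidance protein (-3.03, 0.0239), and Ret, the receptor for GDNF-family ligands (-2.79, 0.0199). Mstn was under 1 TPM in both libraries labelled Isl1cKO and entered the fit only through the controls. Without the filter on low values, or without any one library, 1 member passed. Those with an unadjusted p-value under 0.05 numbered 20, all lower, against 8.92% of all tested genes lower at that threshold.

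Ret measured 30.8 and 24 TPM in control against 3.53 and 2.68 TPM in Isl1cKO. Its values in the libraries labelled Isl1cKO lay close together, unlike those of Pou4f1, which measured 9.66 and 4.16 TPM there. That spread was not particular to Pou4f1, since Slc17a6 of the differentiation list measured 14.1 and 6.68 TPM in the same libraries.

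Set against these genes, all 27 tested members of the differentiation list had a log2 fold change below the 0.02 of Pou4f2, as did 70.3% of all tested genes. Chrnb3 lay below it by a difference of only -0.009 (SE 0.27), and Ntrk2 (-0.02) and Dcc (-0.03) were also close. The value of Pou4f2 itself moved to -0.06 without Isl1cKO replicate 1. In the table taken relative to Pou4f2, where 1.94% of genes passed in limma (254 lower and 17 higher of 13983), 14 of the 27 passed, all lower. Of these 14, 2 (Mstn and Shh) entered the fit only through the controls. Among the others Gap43, a growth cone protein, lay below Pou4f2 by a difference of -1.62 (adjusted p-value 0.00654), and Nefl, the light neurofilament chain, by -1.53 (0.0140). Of the 22 tested regulators 8 passed, all lower: Isl2, Ebf1, Ebf3, Irx2, Irx3, Irx4, Irx5 and Irx6. Any deviation of Pou4f2 itself enters each of these differences.

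Pou4f1 and Pou4f3 lay within the range of the lower ganglion cell genes. Of the 27 differentiation genes 8 had a log2 fold change below that of Pou4f1 and 5 below that of Pou4f3, and of the 22 regulators 5 and 3 did. Over all tested genes the shares were 0.658% and 0.465%. This place was not particular to ganglion cell genes. Of 11 tested lens markers 8 and 8 lay below them, and of 8 red blood cell markers 7 and 5, against 0 and 0 of 11 retinal progenitor markers. Pou4f3 entered the fit only through the controls, and its log2 fold change depended on the pseudocount (-1.66 at 1 and -3.47 at 0.1). Its place among these genes is therefore not read as a result.

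**Figure D4:**
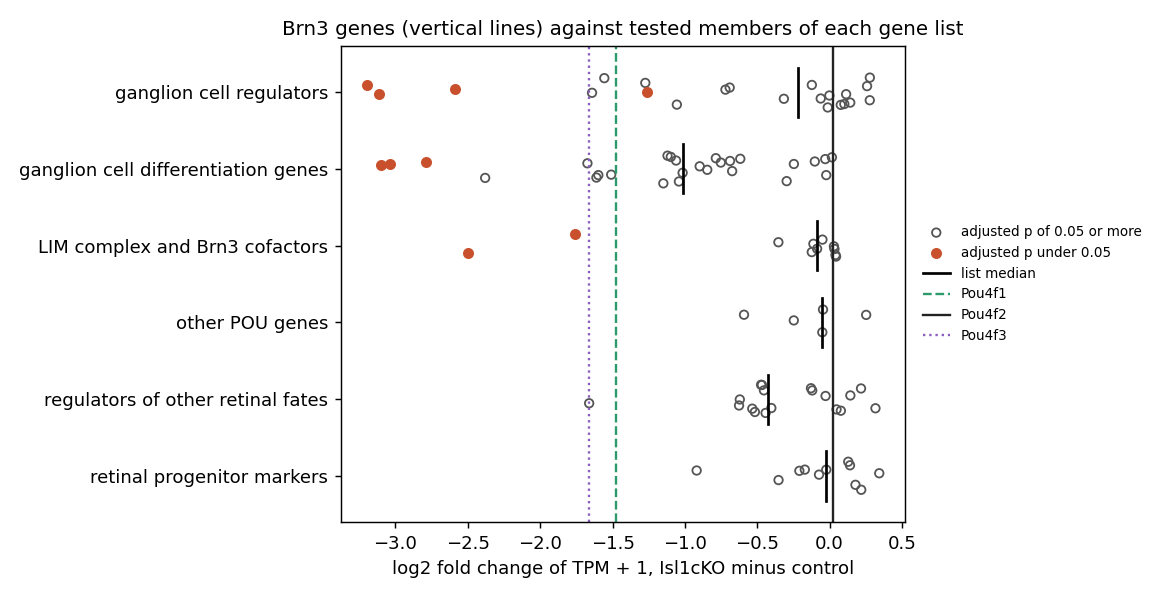
Log2 fold change of TPM + 1, Isl1cKO minus control (horizontal axis), of the tested members of 6 gene lists (1 circle per gene, filled where the adjusted p-value from limma was under 0.05, black bar at the list median, vertical scatter without meaning). The vertical lines mark Pou4f1 at -1.48, Pou4f2 at 0.02 and Pou4f3 at -1.66. All 27 ganglion cell differentiation genes lie left of the Pou4f2 line, Chrnb3 by a difference of only -0.009.

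Cofactors were read next, since Isl1 acts through LIM-domain binding complexes. Of 11 listed and tested genes 2 fell in limma and 0 rose, where 0.465% of all tested genes fell, with a list median of -0.09. Lmo2, a LIM-only adaptor, went from 14.8 and 11.2 TPM to 1.58 and 1.35 TPM (-2.50, adjusted p-value 0.0199), and Lmo1, another of that class, went from 17.7 and 21.5 TPM to 5.38 and 4.75 TPM (-1.76, 0.0249). Neither was called when low genes were kept in or when any 1 library was left out. The core adaptor Ldb1 measured 300 and 311 TPM in control against 316 and 310 TPM in Isl1cKO, and Hipk2, a kinase that binds Brn3 factors, had a log2 fold change of -0.35 with overlapping groups.

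Regulators of other retinal fates, some of which Pou4f2 is known to hold down in ganglion cell precursors, gave 0 calls of 18 tested in limma. By unadjusted p-value under 0.05, 2 were lower and 2 higher, where 12.1% of all tested genes passed in either direction and 8.92% as lower. The median was -0.42, but -0.10 without control replicate 1 and -0.13 without Isl1cKO replicate 2. Dlx1 measured 81.4 and 86.4 TPM in control against 110 and 99.8 TPM in Isl1cKO (0.32, adjusted p-value 0.327), and Dlx2 measured 44.2 and 44.7 TPM against 50.8 and 53.0 TPM (0.22, 0.396). Both are homeobox genes of ganglion and amacrine precursors, and their groups did not overlap, with 14.9% of all tested genes likewise higher without overlap. The lowest were Rxrg, a nuclear receptor of cone and ganglion cells (-1.66, adjusted p-value 0.169), Tfap2a (-0.63), Tfap2b (-0.62) and Prdm13 (-0.53), the last 3 being amacrine cell factors.

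The genes most like each paralog were found by the distance between log2(TPM + 1) values centred over the 4 libraries, among genes with a mean of at least 5 TPM. With 4 libraries many genes share a pattern, and the names describe likeness only. Nearest to Pou4f1 were Cda (distance 0.176), Akap6 (0.290), Ccer2 (0.321), Ppp2r2b (0.332) and Scn3b (0.3498). Cda measured 17.9 and 15.4 TPM in control against 7.47 and 3.47 TPM in Isl1cKO. Nearest to Pou4f3 were Rxrg (0.293), Zfp704 (0.314), Nrp1 (0.351), Islr2 (0.435) and Ebf3 (0.442). Because Pou4f3 is low, its pattern depends on the pseudocount (log2 fold change -1.66 at 1 and -3.47 at 0.1). Distances were taken only at a pseudocount of 1. Nrp1, a semaphorin receptor, measured 27.5 and 19.0 TPM in control against 8.24 and 5.06 TPM in Isl1cKO. For Pou4f2, whose pattern was nearly flat, the nearest were Prkab1, Mier1, Septin10, Cox7c and 0610010K14Rik, at distances of 0.0106 to 0.0151. None of these 15 genes passed in limma, an outcome made likely by choosing them for their likeness to 3 genes that did not pass.

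**Figure D5:**
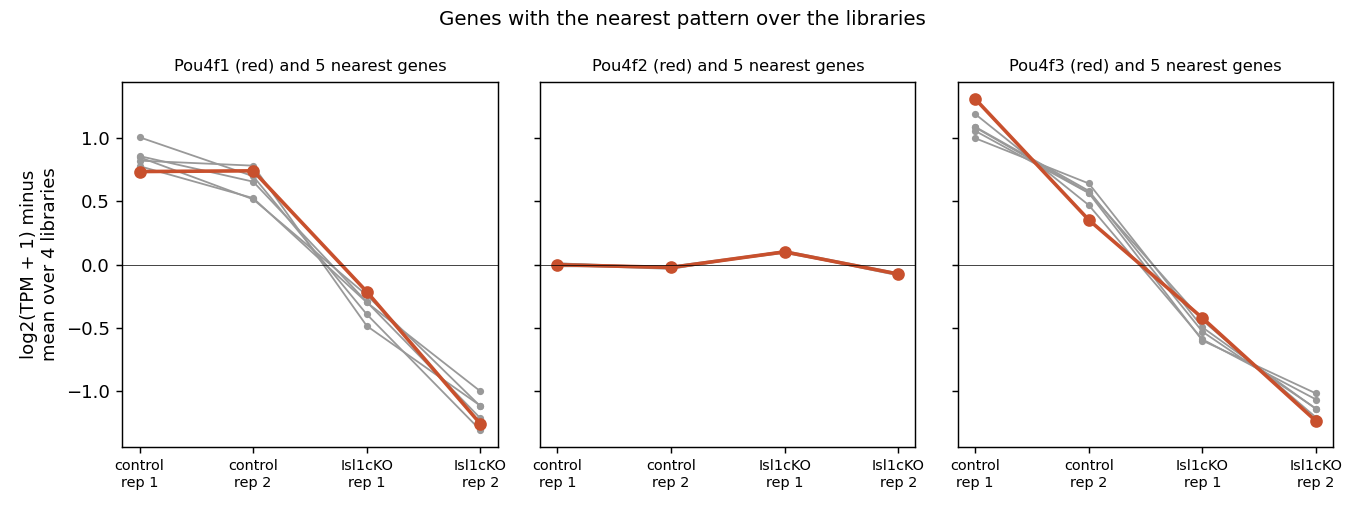
Centred log2(TPM + 1) over the 4 libraries (vertical axis, value minus the gene's mean) of each Brn3 gene in red and the 5 genes at the smallest distance in grey. Pou4f1 and its nearest genes are lowest in Isl1cKO replicate 2, Pou4f2 and its nearest genes stay near 0, and Pou4f3 and its nearest genes are highest in control replicate 1.

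Brn3 genes are also known from other tissues, whose markers were read beside these results. Of 13 sensory ganglion markers 3 were tested, and the summed level was 13.4 and 12.7 TPM in control against 9.32 and 8.17 TPM in Isl1cKO. The highest of them was Tac1, at 7.16 and 6.11 TPM in control against 5.25 and 4.10 TPM in Isl1cKO. Trpv1 was listed at 0 in every library and Scn10a was at most at 0.0362 TPM. The peripheral neurofilament Prph measured 1.63 and 2.20 TPM in control against 0.402 and 0.561 TPM in Isl1cKO. The 8 markers of hair cells and Merkel cells summed to 22.3 and 20.6 TPM in control against 23.9 and 22.6 TPM in Isl1cKO, with Atoh1 at most at 0.0428 TPM.

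Summed levels of markers of other tissues and cell types also differed between the groups without overlap. Single genes did so in 44.9% of the 13984 tested. Of 12 lens markers 11 were tested and 8 fell in limma, against 0.465% of all tested genes, and 5 of the 8 entered the fit only through the controls, the summed level being 226 and 278 TPM in control against 11.6 and 8.17 TPM in Isl1cKO. Of 9 red blood cell markers 8 were tested, all with a log2 fold change below 0 and none called in limma, and their sum was 2903 and 4168 TPM in control against 1418 and 204 TPM in Isl1cKO. The 8 microglia markers summed to 55.2 and 57.0 TPM in control against 69.6 and 82.6 TPM in Isl1cKO. Pigment epithelium markers summed to 44.6 and 37.6 TPM in control against 36.4 and 27.0 TPM in Isl1cKO, and periocular mesenchyme markers to 25.4 and 18.5 TPM and to 17.5 and 13.9 TPM. The 11 retinal progenitor markers summed to 7581 and 7184 TPM in control against 6278 and 7053 TPM in Isl1cKO, and 0 passed in limma. At an unadjusted p-value under 0.05 in limma 2 were lower and 0 higher, where 12.1% of all tested genes passed in either direction and 8.92% as lower. Their log2 fold changes went both ways, 6 below 0 and 5 above. Ccnd1 (-0.92, adjusted p-value 0.158 in limma) and Fgf15 (-0.35, adjusted p-value 0.285) were lowest and Sfrp2 (0.34, adjusted p-value 0.435) was highest. Ccnd1 measured 1944 and 1498 TPM in control against 848 and 961 TPM in Isl1cKO. The part of these differences in the levels of Pou4f1 and Pou4f3 was not tested.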

How the data were processed

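Total RNA from frozen retina was made into strand-specific libraries after poly(A) selection, per the labels' protocols. Trimmomatic, FastQC, HISAT2, SAMtools, StringTie and DESeq2 and the build mm10 are named in the submitters' processing notes, with no versions or roles. Their annotation and strand setting are not given in the sources used here. Per the file headers, the authors deposited for each gene and library the coverage (mean reads per base, a signal not scaled to depth), the FPKM and the TPM. Deposited TPM sum to 1000000 per library. Deposited FPKM entered an alternative only. None of these values is a read count, so count models were not used and the number of reads is not known. By coverage over FPKM, aligned sequence was 12.6 to 14.3 gigabases per library.

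Genes with at least 1 TPM in at least 2 libraries (13984) were fitted as log2(TPM + 1) with limma 3.58.1 in R 4.3.3, genotype as the only term, with Benjamini-Hochberg adjustment over all genes. For differences between paralogs, the reference paralog was subtracted in each library before the same fit; an adjustment over the 3 pairs alone is not used. The fit was tested on simulated data. Named genes were the Brn3 genes, Isl1, genes drawn from 14 gene lists, and the 5 nearest patterns. From the lists, called members and up to 4 members per direction with the largest change were eligible, but not all of these are named and some others are. Values are given for Isl2 and not for Irx6, whose change was larger (-1.56), and Gap43 and Nefl were not among the largest changes. Some genes of these lists are not reported here and are left out of the list counts. Members and lists were chosen with earlier results of these data known. Of 24306 genes on the same chromosome by symbol, 99.67% overlapped their GENCODE M21 position. Transcript runs come from GENCODE M21 and promoters from RefSeq, whose table was found for Pou4f1 and Pou4f2. Alternatives were a pseudocount of 0.1, no filter, median-ratio and upper-quartile scaling, FPKM, a mean-variance trend, a replicate block and leaving out each library.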

Additional observations from a re-analysis of the deposited data

How the results depend on the processing

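The number of reads is not known, which leaves Pou4f3 listed at 0 without a detection limit. Median-ratio and upper-quartile scaling changed no call or direction of the Brn3 genes or their pairs. Pou4f1 and Pou4f2 changed no call under the alternatives that keep all 4 libraries, with adjusted p-values from 0.0797 to 0.389 and from 0.793 to 0.957. Pou4f3, which entered the fit only through the controls, passed only with the replicate block, a pass that supports nothing, and was not tested with FPKM, where it missed the filter. Causes of these changes were not tested.

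At a pseudocount of 0.1 the difference Pou4f3 minus Pou4f1 was -1.85 and Pou4f3 minus Pou4f2 was -3.49, and Pou4f1 minus Pou4f2 had an adjusted p-value of 0.157 in limma. Pou4f1 minus Pou4f2 passed at -1.50 with no filter, at -1.32 with FPKM and at -1.50 with a mean-variance trend, where Pou4f3 minus Pou4f2 passed at -1.69. The 69 called genes numbered 44 at a pseudocount of 0.1, 15 with no filter, 127 with FPKM and 110 with the trend. Called differentiation genes, 3 in the fit reported, were 5 with median-ratio scaling, 1 with no filter, 8 with FPKM and 9 with the trend. Called regulators, 4, were 0 with no filter. Called cofactors, 2, were 1 at a pseudocount of 0.1 and 0 with no filter.

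The replicate numbers were checked for pairing: deviations of control replicate 1 and Isl1cKO replicate 1 had a correlation of 0.126 over the genes. There are 2 pairs and the labels name no common litter or day, so the numbers are not taken to pair libraries. Under the replicate block 265 genes passed, Pou4f3 passed at -1.66 (adjusted p-value 0.00714 in limma), and the differences of Pou4f1 and Pou4f3 from Pou4f2 passed at -1.50 and -1.69. With the block 7 regulators, 13 differentiation genes and 1 regulator of other fates passed.

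Leaving out each library in turn leaves 1 library in a group, assumed to vary like the other group. Log2 fold changes ranged from -2.0 to -0.95 for Pou4f1, from -0.0629 to 0.113 for Pou4f2 and from -2.14 to -1.18 for Pou4f3. Differences ranged from -1.94 to -1.07 for Pou4f1 minus Pou4f2, from -2.16 to -1.22 for Pou4f3 minus Pou4f2 and from -0.67 to 0.30 for Pou4f3 minus Pou4f1. The number of called genes ranged from 10 to 37, of regulators from 0 to 2, of differentiation genes from 1 to 1 and of cofactors from 0 to 0.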
